A study of Mus musculus with 24 samples.

Results

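The genes described here are 10 mouse genes that are known targets of the transcription factor Nrf2: Slc7a11, Gclc, Gclm, Gsta4, Nqo1, Txn1, Txnrd1, Prdx1, Srxn1 and Hmox1. They were found by symbol in the platform's gene annotation. Each had 1 transcript cluster, so they make up 10 of the 19572 annotated rows that were tested. The study measured total RNA of mouse brain on 24 microarrays, to look for changes of the brain transcriptome under raised blood ammonia. The samples were cerebral cortex, hippocampus or cerebellum, from wild-type mice (WT) or from mice whose liver lacks glutamine synthetase through a liver-specific knockout (KO), with 4 arrays in each of the 6 groups. Glutamine synthetase joins ammonia to glutamate, and in the liver it removes ammonia from the blood. Because the deletion is confined to the liver, it cannot be checked in these brain samples. The sources used here do not give strain, age, sex, the Cre line that drives the deletion or whether tissue was pooled. The labels number the animals 1 to 4 within each genotype and repeat these numbers across the regions.

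Nrf2 is held in the cytoplasm by Keap1, which directs its breakdown. Oxidants and electrophiles modify Keap1, and Nrf2 then accumulates, pairs with small Maf proteins in the nucleus and binds antioxidant response elements near its target genes. The targets described here serve the synthesis of glutathione (Slc7a11, Gclc, Gclm), the removal of aldehydes and quinones (Gsta4, Nqo1), the thioredoxin and peroxiredoxin cycle (Txn1, Txnrd1, Prdx1, Srxn1) and the breakdown of heme (Hmox1). In brain, astrocytes are the cells best known for Nrf2 activity and for the supply of glutathione precursors to neurons.

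All values below are the deposited log2 values, and a fold is 2 to the power of a difference of such values. The array medians ran from 8.719 to 8.816, and arrays of 1 group correlated at 0.98 to 0.996 over all rows. An array has no read depth, so the 4 arrays per group set the precision. Hmox1 and Nqo1 were dim, with means over the 24 arrays of 8.16 and 7.93, below the median row mean of 8.91. The other genes of the 10 lay above that median. RMA, which made the values, shrinks differences of dim probes. The region labels were borne out by markers: in WT, 12 of 12 cerebellar markers were called higher in cerebellum than in cortex (median difference 6.34), 9 of 10 cortical markers were called lower there (median -2.71), and 8 of 11 hippocampal markers were called higher in hippocampus than in cortex (median 1.56). One array, cerebellum KO 3, stood apart, with a residual SD of 0.357 against 0.152 to 0.266 in the other 23 arrays. Its mean over brainstem markers was 8.76, against 7.26 to 7.49 in the other cerebellum KO arrays and 7.23 to 7.52 in WT, and its mean over cerebellar markers was 13.38, against 14.74 to 14.90 and 14.44 to 15.00. Cortex KO 1 and KO 4 carried olfactory bulb markers at means of 11.67 to 12.25, against 8.83 to 8.92 in the other cortex KO arrays and 8.64 to 9.21 in WT. Values of the 10 genes that these arrays move most are given with and without them.

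The promoters were examined because Nrf2 acts through a short DNA element. RefSeq windows of 250 bases before to 50 bases after the transcription start (build GRCm38.p6) were found for 7 of the 10 genes, with 3 windows for Txnrd1 and 1 for each of Slc7a11, Gclm, Nqo1, Txn1, Prdx1 and Srxn1. Hmox1, Gclc and Gsta4 had none. The core of the antioxidant response element, TGACNNNGC, was searched on both strands. It occurred in the windows of 4 genes, Gclm, Prdx1, Srxn1 and Txnrd1, while 12.39% of all 32851 promoter windows and 13.99% of all 27025 genes held it. All 4 matches lay on the strand opposite to the gene, so that the reverse complement of the motif is read along the gene. The sequences are shown because they place the element relative to each start; they run 5′ to 3′ along the gene, all on the + strand, with the match in capitals.
Gclm: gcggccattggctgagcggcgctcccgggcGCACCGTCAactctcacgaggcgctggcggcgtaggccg
Prdx1: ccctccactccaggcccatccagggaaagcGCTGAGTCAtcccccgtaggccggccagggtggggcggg
Txnrd1: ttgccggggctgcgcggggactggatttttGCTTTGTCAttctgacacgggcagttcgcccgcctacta
Srxn1: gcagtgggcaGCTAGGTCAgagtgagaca

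With the start counted as 1, the match covered bases -134 to -126 in Gclm (printed stretch chr3:122245393-122245461) and bases -133 to -125 in Prdx1 (chr4:116685436-116685504). In Txnrd1 it covered bases -92 to -84 of one of its 3 starts (chr10:82859084-82859152), and in Srxn1 bases 29 to 37, downstream of the start (chr2:152105542-152105570). The windows of Slc7a11, Nqo1 and Txn1 did not hold these letters, which says nothing about elements elsewhere.

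Slc7a11 is also known as a target of ATF4, the factor of the amino acid and stress response, whose composite element reads TGATGCAA. This motif, searched on both strands, occurred in the window of 1 of the 7 genes, Slc7a11, and in 0.89% of all windows and 1.03% of all genes. The upstream sequence of Slc7a11 held it in both orientations, which do not overlap: TGATGCAA along the gene at bases -66 to -59 and its reverse complement at bases -47 to -40. The stretch below is chr3:50443614-50443733 on the - strand, with both matches in capitals. A match is a description of the letters and not a measured binding site.
Slc7a11: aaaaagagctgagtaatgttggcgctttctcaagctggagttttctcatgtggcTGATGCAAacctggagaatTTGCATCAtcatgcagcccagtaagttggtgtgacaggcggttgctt

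**Figure D1:**
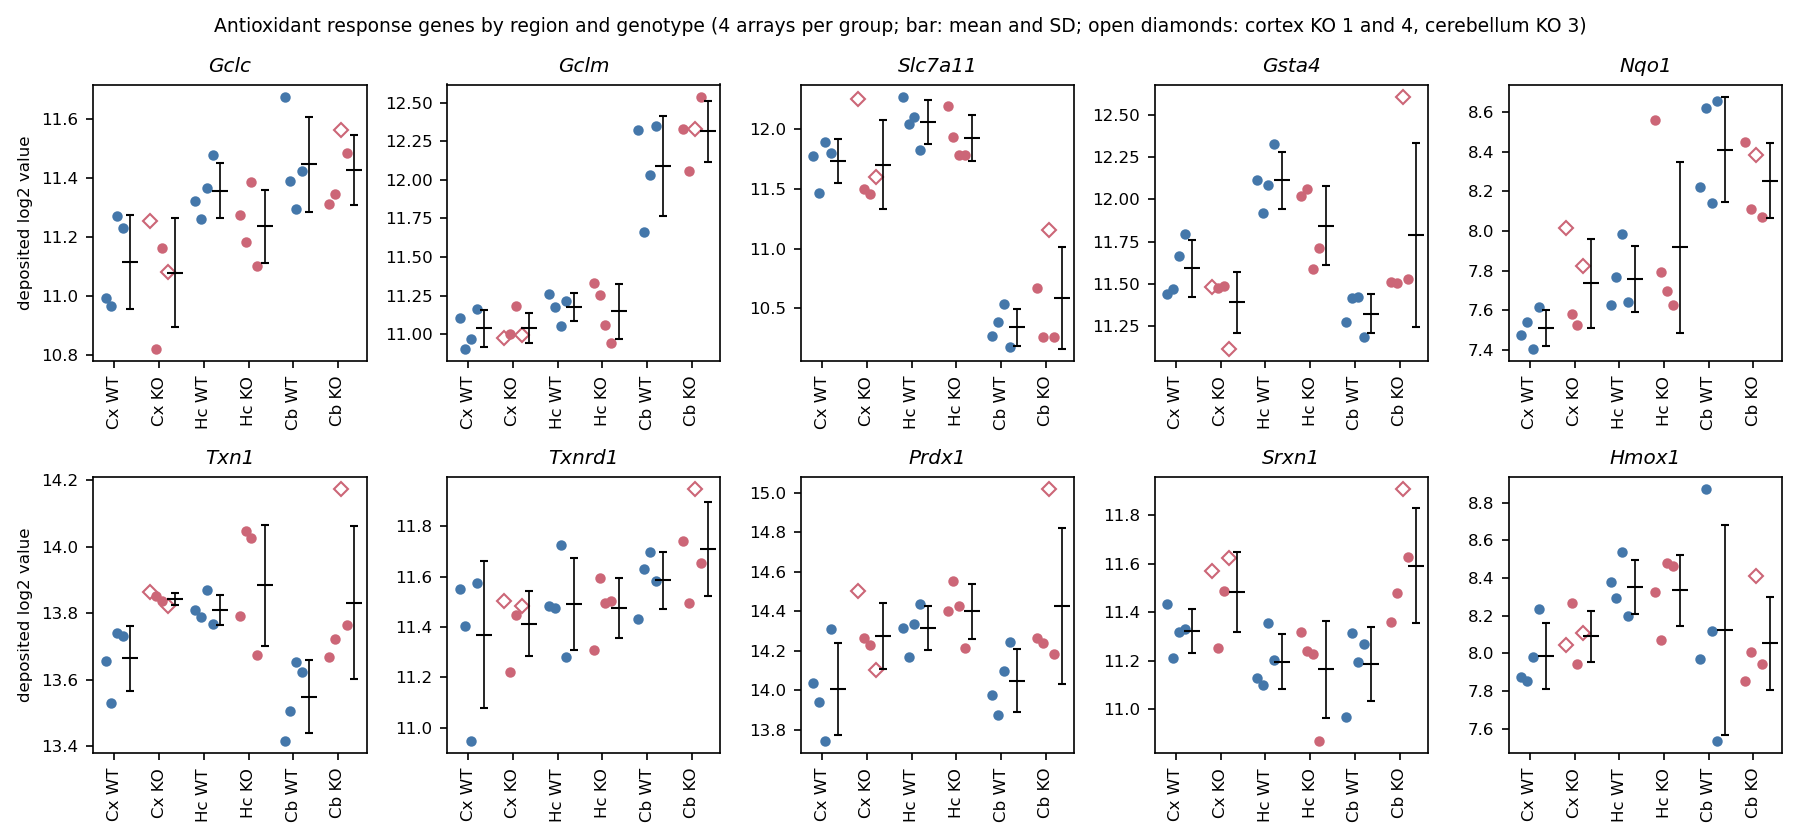
Deposited log2 value (vertical axis) of each of the 10 genes in the 4 arrays of each group, by region (Cx cortex, Hc hippocampus, Cb cerebellum) and genotype on the horizontal axis, with a bar for the mean and an error bar for the SD; open diamonds are cortex KO 1 and KO 4 and cerebellum KO 3. Gclm lay highest and Slc7a11 lowest in cerebellum in both genotypes. Nqo1 lay highest there in WT, while in KO hippocampus KO 1 lay above the cerebellar arrays. WT and KO arrays of a region overlapped for most genes.

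For the 10 genes over all arrays, calls came only from cerebellum against the other regions. Hippocampus against cortex gave none, as did KO against WT. In WT mice, limma called 4 of the 10 genes between cerebellum and cortex (adjusted p under 0.05, against 35.8% of all rows), 4 between cerebellum and hippocampus (against 34.9%) and 0 between hippocampus and cortex (against 7.09%). In KO mice it called 4 (against 32.1% of all rows), 3 (against 31.3%) and 0 (against 6.86%) in the same order. These shares were near those of all rows, and the called genes lay on both sides of 0. Gclm and Nqo1 were higher in cerebellum than in both other regions, and Slc7a11 was lower than in both, in both genotypes except that Nqo1 was not called between cerebellum and hippocampus in KO.

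The WT groups did not overlap for 5 of the 10 genes between cerebellum and cortex (33.7% of all rows), for 5 between cerebellum and hippocampus (35.7%) and for 3 between hippocampus and cortex (15.9%). In KO the numbers were 5 (26.9% of all rows), 3 (27.6%) and 1 (11.8%). Without cerebellum KO 3, an array that also widens the shared estimate of the spread, limma called 3 of the 10 genes in KO between cerebellum and cortex (33% of all rows), with Gclc lost, and 3 between cerebellum and hippocampus (33.5%). Without cortex KO 1 and KO 4 the same 4 genes as over all arrays were called between cerebellum and cortex in KO, with Gclm at 1.22, Nqo1 at 0.70, Gclc at 0.43 and Slc7a11 at -0.89. Without cerebellum KO 3, Gsta4 was called between hippocampus and cortex in both genotypes (9.14% of all rows in WT, 8.84% in KO), and Txn1 became the fifth of the 10 genes called between cerebellum and hippocampus in WT (36.3% of all rows).

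Slc7a11 encodes the light chain of the cystine/glutamate exchanger, which brings in the cystine for glutathione synthesis. In WT mice its 4 values were 10.27, 10.39, 10.53 and 10.18 in cerebellum, 11.77, 11.47, 11.89 and 11.80 in cortex, and 12.27, 12.04, 12.10 and 11.82 in hippocampus. All cerebellar arrays lay below all arrays of the other regions. Slc7a11 was lower in WT cerebellum than in cortex by a log2 difference of -1.39 (SE 0.18, 95% interval -1.75 to -1.02), a 2.62-fold lower level (limma adjusted p = 5.38e-07). Against hippocampus the difference was -1.71 (95% interval -2.08 to -1.35), or 3.28-fold lower (adjusted p = 1.80e-08).

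In KO mice the cerebellar values of Slc7a11 were 10.67, 10.26, 11.16 and 10.27, all below the cortical values of 12.25, 11.50, 11.46 and 11.60. The cerebellum was again lower, by -1.11 against cortex (95% interval -1.48 to -0.75; 2.16-fold lower, adjusted p = 1.86e-05) and by -1.33 against hippocampus (95% interval -1.70 to -0.97; 2.52-fold lower, adjusted p = 1.39e-06). Without cerebellum KO 3, which had the highest cerebellar value, the differences were -1.30 and -1.52. Without cortex KO 1, which had the highest cortical value, and KO 4, the difference from cortex was -0.89 (95% interval -1.29 to -0.49; 1.85-fold lower, adjusted p = 0.000965). The partner chain of the exchanger, Slc3a2, was at -0.25 in WT and -0.14 in KO between cerebellum and cortex and was not called in either; it lies outside the rule for named genes and was picked with its values known.

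Gclm encodes the modifier subunit of glutamate-cysteine ligase, which makes the first and rate-limiting step of glutathione synthesis. Its WT values were 12.32, 11.66, 12.03 and 12.35 in cerebellum, 11.11, 10.91, 10.97 and 11.16 in cortex, and 11.26, 11.18, 11.05 and 11.22 in hippocampus. Every cerebellar array was above every cortical and hippocampal array. Gclm was higher in WT cerebellum than in cortex by 1.05 (SE 0.13, 95% interval 0.78 to 1.32), a 2.08-fold difference (adjusted p = 3.51e-07), and than in hippocampus by 0.91 (95% interval 0.64 to 1.18; 1.88-fold, adjusted p = 3.26e-06).

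In KO mice Gclm was at 12.33, 12.06, 12.33 and 12.54 in cerebellum and at 10.97, 11.00, 11.19 and 10.99 in cortex. Its difference was 1.28 against cortex (95% interval 1.01 to 1.55; 2.42-fold, adjusted p = 2.14e-08) and 1.17 against hippocampus (95% interval 0.90 to 1.44; 2.25-fold, adjusted p = 9.18e-08). Gclm thus stood in the opposite direction to Slc7a11, which feeds the same product, in both genotypes. Over the 24 arrays the correlation of these genes was -0.84, and these points share the 3 regions.

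Gclc, the catalytic subunit of the same ligase, differed less. Its WT values were 11.67, 11.39, 11.30 and 11.42 in cerebellum and 10.99, 10.97, 11.27 and 11.23 in cortex, and these groups did not overlap. The difference was 0.33 (SE 0.11, 95% interval 0.10 to 0.56; 1.26-fold, adjusted p = 0.0202) in WT and 0.35 (95% interval 0.12 to 0.57; 1.27-fold, adjusted p = 0.0171) in KO. The WT call was lost without cortex WT 1 (0.29), cortex WT 2 (0.28) or cerebellum WT 1 (0.26), and the KO call without cortex KO 2 (0.26) or cerebellum KO 3 (0.30, adjusted p = 0.0545). Between cerebellum and hippocampus Gclc was called in neither genotype.

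**Figure D2:**
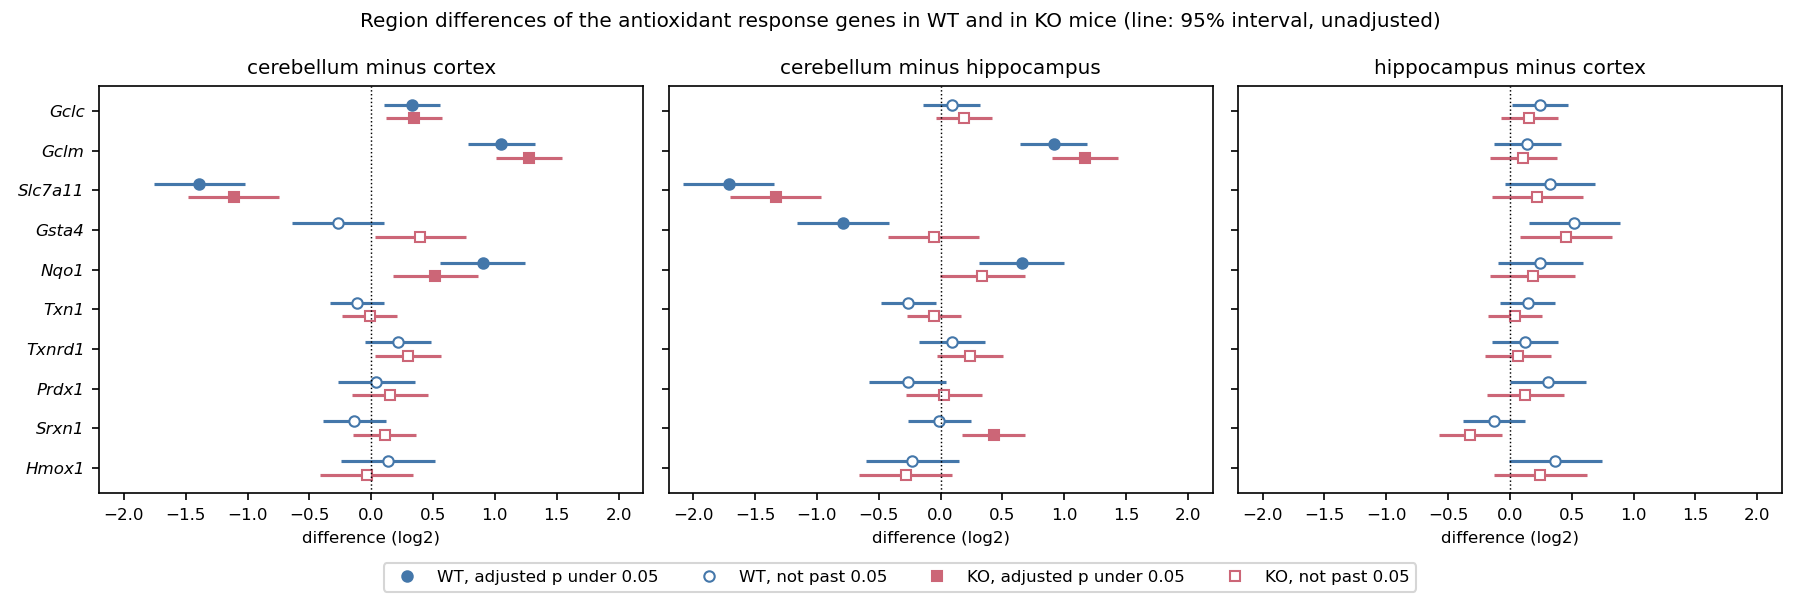
Difference of deposited log2 values between regions (horizontal axis) for each of the 10 genes (vertical axis), in WT (circles) and KO (squares), with the unadjusted 95% interval as a line; filled symbols had a limma adjusted p under 0.05. Gclm (1.05 and 1.28) and Slc7a11 (-1.39 and -1.11) stood farthest from 0 between cerebellum and cortex, on opposite sides, and no symbol is filled between hippocampus and cortex.

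Nqo1 encodes a quinone reductase that uses NAD(P)H. In WT mice it was at 8.22, 8.62, 8.14 and 8.66 in cerebellum, at 7.47, 7.54, 7.41 and 7.62 in cortex, and at 7.63, 7.77, 7.99 and 7.64 in hippocampus. The cerebellar arrays lay above all others. Nqo1 was higher in WT cerebellum by 0.90 against cortex (SE 0.17, 95% interval 0.56 to 1.25; 1.87-fold, adjusted p = 8.97e-05) and by 0.66 against hippocampus (95% interval 0.31 to 1.00; 1.58-fold, adjusted p = 0.00265).

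In KO mice Nqo1 was at 8.45, 8.11, 8.38 and 8.07 in cerebellum, at 8.01, 7.58, 7.52 and 7.82 in cortex, and at 8.56, 7.79, 7.70 and 7.62 in hippocampus. The difference between cerebellum and cortex was 0.52 (95% interval 0.18 to 0.86; 1.43-fold, adjusted p = 0.0175), and the call was lost without cortex KO 2 (0.47), cortex KO 3 (0.45) or cerebellum KO 1 (0.45). Against hippocampus it was 0.34 (adjusted p = 0.136). The highest hippocampal value came from KO 1, whose mean over choroid plexus markers was 11.16, against 8.18 to 9.53 in the other hippocampus KO arrays; their part in the value of Nqo1 was not tested. Without that array Nqo1 was higher in KO cerebellum than in hippocampus by 0.55 (adjusted p = 0.00466).

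Gsta4 encodes a glutathione transferase that conjugates 4-hydroxynonenal, an aldehyde of lipid peroxidation. Its WT values were 12.12, 11.92, 12.09 and 12.33 in hippocampus, 11.44, 11.47, 11.66 and 11.80 in cortex, and 11.27, 11.42, 11.42 and 11.18 in cerebellum. In WT the 3 regions did not overlap, with hippocampus highest and cerebellum lowest. Gsta4 was lower in WT cerebellum than in hippocampus by -0.79 (95% interval -1.16 to -0.42; 1.73-fold lower, adjusted p = 0.000966), while the difference from cortex, -0.27, was not called (adjusted p = 0.277). Hippocampus minus cortex was 0.52 in WT (adjusted p = 0.0821) and 0.45 in KO (adjusted p = 0.147). Both passed without cerebellum KO 3 (adjusted p = 0.00631 and 0.0165).

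In KO mice the order of cerebellum and cortex was the other way round for Gsta4. Its cerebellar values were 11.51, 11.51, 12.61 and 11.53, all above the cortical values of 11.48, 11.47, 11.49 and 11.12. The KO difference between cerebellum and cortex was 0.40 (adjusted p = 0.0962), 0.13 without cerebellum KO 3 and 0.31 without cortex KO 1 and KO 4. Between cerebellum and hippocampus it was -0.06 in KO (adjusted p = 0.86) and -0.33 without cerebellum KO 3 (adjusted p = 0.0554).

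The genes of the thioredoxin cycle differed little between regions. Txn1 encodes the cytosolic thioredoxin, Txnrd1 the reductase that restores it with NADPH, Prdx1 a peroxiredoxin that reduces peroxides with thioredoxin, and Srxn1 the sulfiredoxin that repairs over-oxidised peroxiredoxins. Between cerebellum and cortex none of these 4 was called, with differences of -0.14 (Srxn1) to 0.22 (Txnrd1) in WT and of -0.01 (Txn1) to 0.30 (Txnrd1) in KO. Txnrd1 in KO passed without cortex WT 3 (0.30) or without cerebellum KO 2 (0.37).

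Txn1 in WT was at 13.42, 13.51, 13.66 and 13.62 in cerebellum and at 13.81, 13.79, 13.87 and 13.77 in hippocampus. These groups did not overlap, but the difference of -0.26 was not called (adjusted p = 0.0631), and it passed without cerebellum KO 3 (adjusted p = 0.0311). Srxn1 was the only gene of the 10 called higher in cerebellum than in hippocampus in KO (0.43, 95% interval 0.18 to 0.68; 1.35-fold, adjusted p = 0.00801) that was not called in WT (-0.01). Its KO values were 11.36, 11.48, 11.91 and 11.63 in cerebellum and 11.32, 11.24, 11.23 and 10.87 in hippocampus, with no overlap, and the difference without cerebellum KO 3 was 0.32 (adjusted p = 0.0412). For Srxn1 the KO effect itself did not pass as different between regions (adjusted p = 0.921).

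Hmox1 encodes the inducible heme oxygenase, which splits heme into biliverdin, iron and carbon monoxide. Its WT values were 7.97, 8.87, 8.12 and 7.54 in cerebellum, 7.87, 7.85, 7.98 and 8.24 in cortex, and 8.38, 8.29, 8.54 and 8.20 in hippocampus. The cerebellar arrays spread widely (SD 0.56, n = 4), and Hmox1 was called in none of the region comparisons. Its highest value, 8.87, came from cerebellum WT 2, whose mean over choroid plexus markers was 10.51, against 8.09 to 9.45 in the other cerebellum WT arrays; their part in it was not tested. Hippocampus KO 1, with a mean of 11.16 over these markers, had Hmox1 at 8.33, where its group ran from 8.07 to 8.48. Cerebellum WT 2 also held the lowest cerebellar value of Gclm, 11.66. Without it Hmox1 was lower in WT cerebellum than in hippocampus by -0.48 (adjusted p = 0.0146), against -0.23 with it.

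Hippocampus and cortex differed little for these genes, and 9 of the 10 were higher in hippocampus in each genotype, with a median of 0.24 in WT and 0.14 in KO, while 46.8% of all rows were higher there in WT and 49.8% in KO. In WT, Hmox1 was at 0.37 (adjusted p = 0.256), Slc7a11 at 0.32 (0.303 as adjusted p), Prdx1 at 0.31 (adjusted p = 0.242) and Gclc at 0.24 (adjusted p = 0.207), none past the threshold. Srxn1 was the exception in both genotypes, with -0.32 in KO (adjusted p = 0.13; -0.21 without cortex KO 1 and KO 4).

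Cell type markers differed between the regions as well, and 35.8% of all rows were called between cerebellum and cortex in WT. Of 15 astrocyte markers, 7 were called higher and 2 lower in WT cerebellum than in cortex, and their mean per array was 13.57 to 13.87 in cerebellum and 13.09 to 13.44 in cortex. Of 15 microglia and macrophage markers, 11 were called lower in cerebellum (means 8.34 to 8.54 against 9.31 to 9.39). Of 15 neuron markers, 2 were called higher and 8 lower (means 13.69 to 14.19 against 14.47 to 14.59). In bulk tissue, fewer cells of a type and less RNA per cell cannot be told apart, and the part of these markers in the region differences of the 10 genes was not tested.

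Other genes of the same pathways were called in both directions between cerebellum and cortex in WT, where 35.8% of all rows were called. Of 28 other Nrf2 targets measured, 5 were called higher and 7 lower, with Abcc1, an exporter of glutathione conjugates, at 0.76 and Sqstm1, the p62 adaptor, at -0.89. Of 27 glutathione genes, 5 were higher and 8 lower, with Gsr, which reduces oxidised glutathione, at 1.31, Slc1a1, a glutamate and cysteine transporter, at -1.95 and Gsto1, an omega class transferase, at -0.95. Of 18 thioredoxin genes, 6 were higher and 2 lower, with Sesn1 at 1.07, Txndc12 at 0.68 and Tmx1 at 0.67. Of 12 genes of NADPH supply, 3 were higher and 1 lower, with Nadk2, the mitochondrial NAD kinase, at 0.81 and Me3, a malic enzyme, at -0.72. Of 17 heme and iron genes, 4 were higher and 4 lower, with Hebp1 at -1.40, Ireb2 at 0.99 and Blvra, a biliverdin reductase, at 0.68. The called genes came to 12 of 28, 13 of 27, 8 of 18, 4 of 12 and 8 of 17 in these 5 lists, and no list was tested against all rows.

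The KO mice gave values of the same sign for these genes. Gsr was at 0.95, Slc1a1 at -1.56, Sqstm1 at -0.46, Abcc1 at 0.43, Sesn1 at 0.85, Nadk2 at 1.00, Me3 at -1.07, Hebp1 at -1.18 and Ireb2 at 0.75, all called, while Gsto1 was at -0.22 and was not. Between cerebellum and cortex in WT, 1 of 17 regulators was called higher and 4 lower, against 35.8% of all rows called. Among them were Rxra (-0.76) and Nfe2l1 (-0.71). Nfe2l2, which encodes Nrf2, was at -0.04 in WT and 0.09 in KO between cerebellum and cortex and at 0.03 in both genotypes between cerebellum and hippocampus, not called in any of these. Keap1 was lower in cerebellum than in hippocampus by -0.36 in each genotype (adjusted p under 0.05). Nfe2l2 and Keap1 were named for their roles, with their values known. Of 7 superoxide and catalase genes, 0 were called higher and 1 lower between cerebellum and cortex in WT, again against 35.8% of all rows. The remaining lists gave 2 and 2 of 19 ATF4 targets there, and 0 and 2 of 9 NADPH oxidase and nitric oxide synthase genes.

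KO against WT gave no called gene in any region. In cerebellum, where the median difference of the 10 genes was largest, limma called 0 of the 10 and 0% of the 19572 rows at an adjusted p under 0.05. At an unadjusted p under 0.05 it gave 4 of the 10, Srxn1, Gsta4, Prdx1 and Txn1, against 9.5% of all rows. These 4 were all higher in KO, 3 of them belong to the thioredoxin and peroxiredoxin cycle, and all 4 had their highest KO value in cerebellum KO 3. Of the 10 genes, 7 were higher in KO, with a median of 0.23, where 49.2% of all rows were higher and their median was 0.00. Without cerebellum KO 3 it was again 7 of 10, with a median of 0.11, where 54.3% of all rows were higher and their median was 0.01. The 10 genes were chosen with earlier results of these data known, so their shares here and below are a description.

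Srxn1 in cerebellum was at 10.97, 11.31, 11.20 and 11.27 in WT and at 11.36, 11.48, 11.91 and 11.63 in KO. All 4 KO arrays lay above all WT arrays. The difference was 0.41 (SE 0.12, 95% interval 0.15 to 0.66), a 1.33-fold higher level (limma adjusted p = 0.435). Without cerebellum KO 3 it was 0.30 (95% interval 0.05 to 0.55; 1.23-fold, adjusted p = 0.999), and Srxn1 was then the only one of the 10 with an unadjusted p under 0.05, a level reached by 3.52% of all rows. In cortex the difference was 0.16 (95% interval -0.09 to 0.41) and in hippocampus -0.03 (95% interval -0.29 to 0.22).

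Gsta4 in cerebellum was at 11.27, 11.42, 11.42 and 11.18 in WT and at 11.51, 11.51, 12.61 and 11.53 in KO. The KO arrays again lay above all WT arrays, with KO 3 far above the other 3. The difference was 0.46 (SE 0.18, 95% interval 0.09 to 0.83; 1.38-fold, adjusted p = 0.444), and without KO 3 it was 0.19 (95% interval -0.08 to 0.46). In cortex and hippocampus Gsta4 was lower in KO, by -0.20 (95% interval -0.57 to 0.17) and -0.27 (95% interval -0.64 to 0.10). For a difference of the KO effect between the regions, limma called 0 of the 10 genes and 0% of all rows. At an unadjusted p under 0.05 Gsta4 was the 1 gene of the 10 (adjusted p = 0.921), against 5.09% of all rows, and it was again the 1 gene without KO 3, against 3.78% of all rows.

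Txn1 in cerebellum was at 13.42, 13.51, 13.66 and 13.62 in WT and at 13.67, 13.72, 14.17 and 13.77 in KO. The groups did not overlap, with the lowest KO value at 13.67 and the highest WT value at 13.66. The difference was 0.28 (SE 0.11, 95% interval 0.06 to 0.50; 1.22-fold, adjusted p = 0.442), and 0.17 without KO 3 (95% interval -0.04 to 0.38).

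Prdx1 in cerebellum was at 13.98, 13.87, 14.10 and 14.24 in WT and at 14.26, 14.24, 15.02 and 14.18 in KO, so the groups overlapped. The difference was 0.38 (SE 0.15, 95% interval 0.07 to 0.69; 1.30-fold, adjusted p = 0.456), and 0.18 without KO 3 (95% interval -0.08 to 0.44). Srxn1, Gsta4 and Txn1 were thus the 3 genes whose cerebellar KO arrays all lay above the WT arrays, against 1.93% of all rows. The same 3 did so without KO 3, against 2.88% of all rows.

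**Figure D3:**
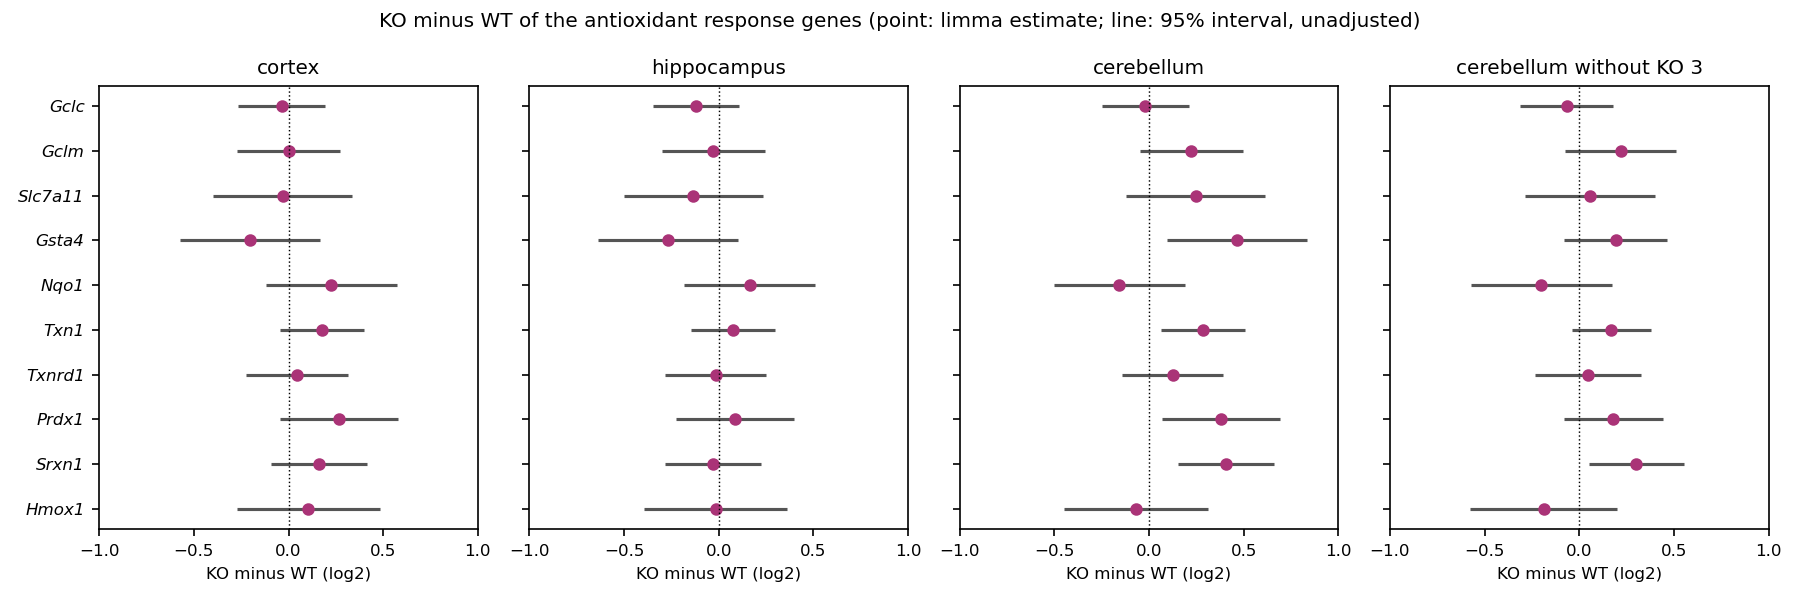
KO minus WT difference of deposited log2 values (horizontal axis) for each of the 10 genes (vertical axis) in cortex, hippocampus, cerebellum and cerebellum without KO 3, as a point with its unadjusted 95% interval. In cerebellum the intervals of Srxn1, Gsta4, Prdx1 and Txn1 lie above 0, and without KO 3 the interval of Srxn1 alone does (0.05 to 0.55).

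The other 6 genes in cerebellum had intervals that include 0. Slc7a11 was at 0.25 (95% interval -0.12 to 0.61) and at 0.06 without KO 3, whose value of 11.16 was above the other 7 cerebellar arrays (10.18 to 10.67). Gclm was at 0.22 (95% interval -0.05 to 0.49) and at 0.22 without KO 3 (95% interval -0.08 to 0.51). It was at 0.08 without cerebellum WT 2, which held its lowest cerebellar value, and at 0.31 without cerebellum WT 4. Txnrd1 was at 0.12 (0.05 without KO 3). Gclc was at -0.02, Hmox1 at -0.07 and Nqo1 at -0.16, and without KO 3 at -0.07, -0.19 and -0.20. For Nqo1 the interval of -0.50 to 0.19 and for Hmox1 that of -0.45 to 0.31 leave room for changes in either direction.

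Cell type markers moved with the cerebellar differences, although 0 markers were called. Of 12 oligodendrocyte markers, 12 were higher in KO (median 0.52) and 11 without KO 3 (median 0.14), and their mean was 14.17 in KO 3, 12.50 to 12.58 in the other KO arrays and 12.10 to 12.71 in WT. Of 15 microglia and macrophage markers 13 were higher (median 0.28, and 0.10 without KO 3), and their mean was 9.18 in KO 3, against 8.49 to 8.57 and 8.34 to 8.54. Of 15 astrocyte markers 12 were higher (median 0.19, and 0.08 without KO 3), with means of 14.08, 13.87 to 13.89 and 13.57 to 13.87. Of 15 neuron markers 13 were higher (median 0.27, and 0.13 without KO 3), with means of 14.82, 14.09 to 14.15 and 13.69 to 14.19. Choroid plexus markers went the other way, with 0 of 11 higher (median -0.45, and -0.86 without KO 3), but KO 3 was high for these too, at a mean of 10.18, against 8.03 to 8.09 in the other KO arrays and 8.09 to 10.51 in WT. Of 14 endothelial markers 11 were higher (median 0.22, and 0.11 without KO 3), with means of 11.00, 10.48 to 10.63 and 10.40 to 10.59. Of 14 mural and meningeal markers 9 were higher (median 0.04), and 5 without KO 3 (median -0.06), with means of 10.62, 9.85 to 9.97 and 9.93 to 10.14. The part of these markers in the differences of Srxn1, Gsta4, Prdx1 and Txn1 was not tested.

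In cortex limma called 0 of the 10 genes and 0% of all rows, and at an unadjusted p under 0.05 it gave 0 of the 10 against 7.45% of all rows. Without cortex KO 2 it called 55 of all rows and without cortex KO 3 it called 34, with 0 of the 10 genes among them. Of the 10 genes, 7 were higher in KO (median 0.07), against 47.1% of all rows (median -0.01). Txn1 was at 13.66, 13.53, 13.74 and 13.73 in WT and at 13.87, 13.85, 13.84 and 13.82 in KO. These groups did not overlap, and Txn1 was the 1 gene of the 10 whose KO arrays all lay above WT (1.71% of all rows). Its difference was 0.18 (SE 0.11, 95% interval -0.04 to 0.40; 1.13-fold, adjusted p = 0.771).

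Prdx1 in cortex was at 14.03, 13.94, 13.74 and 14.31 in WT and at 14.50, 14.26, 14.23 and 14.10 in KO, with overlap, and differed by 0.27 (SE 0.15, 95% interval -0.04 to 0.58; 1.20-fold, adjusted p = 0.754). Without cortex KO 1 and KO 4, the arrays rich in olfactory bulb markers, Txn1 stayed at 0.18 and Prdx1 was at 0.24. Nqo1, at 0.23 over all arrays (95% interval -0.12 to 0.57), was at 0.04 without those arrays, Srxn1 went from 0.16 to 0.05, and Slc7a11 from -0.03 to -0.25. The highest cortical value of Slc7a11, 12.25, came from KO 1, while the other 3 KO arrays were at 11.46 to 11.60 and WT at 11.47 to 11.89. Gclm was at 0.00 (95% interval -0.27 to 0.27), Gclc at -0.04, Txnrd1 at 0.04 and Hmox1 at 0.10.

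In hippocampus limma called 0 of the 10 genes and 0% of all rows, and at an unadjusted p under 0.05 it gave 0 of the 10 against 2.11% of all rows. For 0 of the 10 genes did the KO arrays all lie on 1 side of the WT arrays, which they did for 2.17% of all rows. Only 3 of the 10 were higher in KO (median -0.02), against 52.5% of all rows (median 0.01). Gsta4 was farthest below 0 at -0.27, with values of 12.12, 11.92, 12.09 and 12.33 in WT and 12.02, 12.06, 11.58 and 11.71 in KO, and every hippocampal difference had an adjusted p of 1. Nqo1 was farthest above 0 at 0.16 (95% interval -0.18 to 0.51), and was at -0.05 without hippocampus KO 1, the array with the high choroid plexus markers. The KO 4 array was the lowest of the 8 hippocampal arrays for 6 of the 10 genes, which it was for 15.4% of all rows.

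Averaged over the regions, limma called 0 of the 10 genes and 0% of all rows, and at an unadjusted p under 0.05 it gave 3 of the 10 against 7.41% of all rows. The average was higher in KO for 8 of the 10 genes (median 0.06) and for 50.6% of all rows. The 3 genes were Txn1 at 0.18 (SE 0.06, 95% interval 0.05 to 0.31), Prdx1 at 0.24 (SE 0.09, 95% interval 0.06 to 0.42) and Srxn1 at 0.18 (SE 0.07, 95% interval 0.03 to 0.33), each with an adjusted p of 0.661. Without cerebellum KO 3 they were at 0.14, 0.18 and 0.14, and all 3 kept an unadjusted p under 0.05. Without cortex KO 1 and KO 4, Srxn1 was at 0.14 (95% interval -0.02 to 0.30) and no longer had one. Without all 3 of these arrays Txn1 was at 0.14 (95% interval 0.01 to 0.27), Prdx1 at 0.17 (95% interval 0.02 to 0.32) and Srxn1 at 0.11 (95% interval -0.04 to 0.25). Txn1 and Prdx1 were the 2 genes of the 10 that were higher in KO in all 3 regions, and Gclc the 1 gene that was lower in all 3. The share of all rows with 1 sign in all 3 regions was not counted, so these counts cannot be set against it. Of all rows, 47.1% were higher in KO in cortex, 52.5% in hippocampus and 49.2% in cerebellum. The other 7 genes averaged between -0.06 and 0.08.

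**Figure D4:**
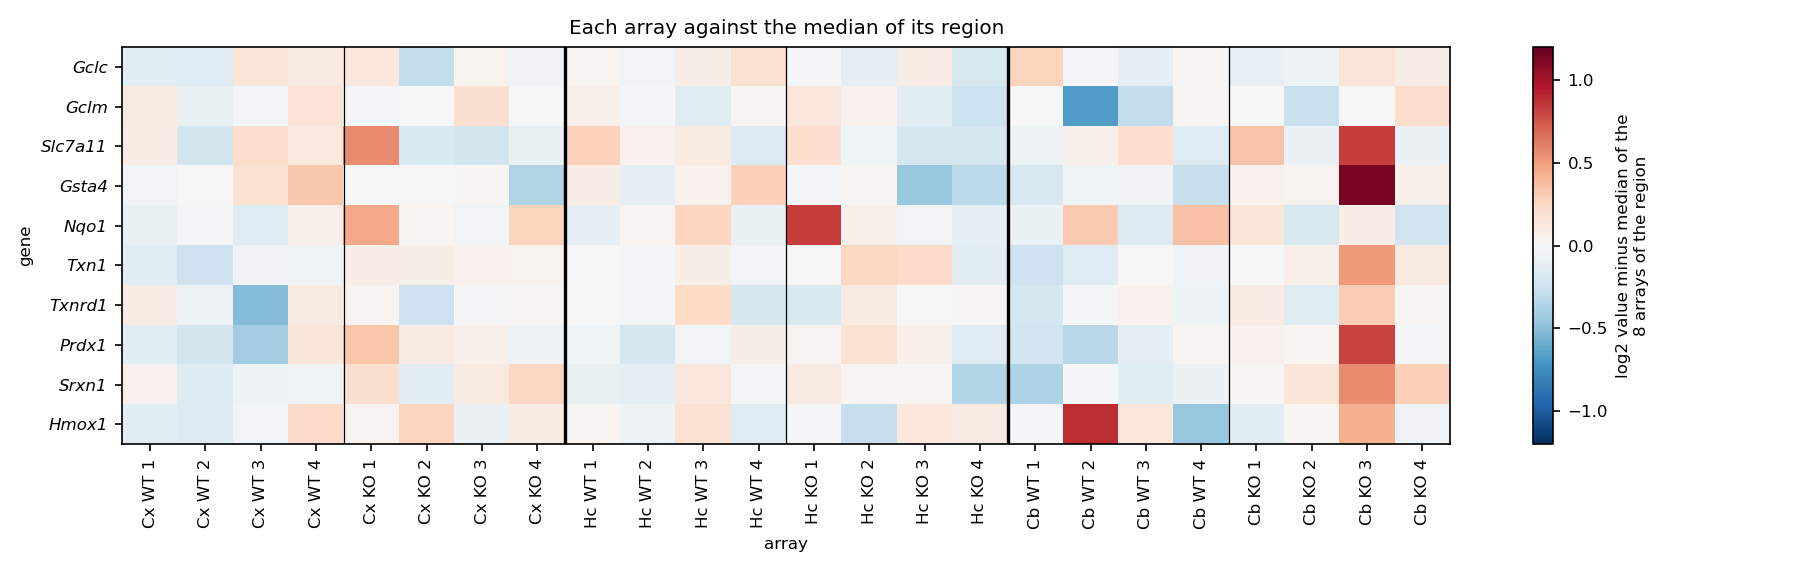
Deviation of each of the 10 genes (vertical axis) in each of the 24 arrays (horizontal axis; Cx cortex, Hc hippocampus, Cb cerebellum) from the median of its region's 8 arrays, as a colour scale in log2 units. Cerebellum KO 3 stands out as the column with the strongest positive deviations and is the highest cerebellar array for 6 of the 10 genes.

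Single arrays carried much of the spread of these genes. Cerebellum KO 3 was the highest of the 8 cerebellar arrays for 6 of the 10 genes, which it was for 23.8% of all rows, and the lowest for 0 of them, which it was for 27.9% of all rows. Its mean over the 10 genes was 11.75, against 11.22 to 11.32 in the other KO arrays and 11.15 to 11.27 in WT. Cortex KO 1 was the highest of the cortical arrays for 4 of the 10 genes (20.0% of all rows), and cortex WT 2 the lowest for 4 (10.6% of all rows).

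In no region was a gene of the wider pathway lists called between KO and WT. In cerebellum, 24 of 28 other Nrf2 targets were higher in KO (median 0.15), and 19 without KO 3 (median 0.06). Of 27 glutathione genes 20 were higher (median 0.12; 18 and 0.06 without KO 3), and of 18 thioredoxin genes 12 (median 0.19; 13 and 0.06 without KO 3). All rows had a median of 0.00 and, without KO 3, of 0.01. The genes of smallest p were Slc1a1 at 0.56 (0.35 without KO 3), Gsto1 at 0.49 (0.34), Prdx3, the mitochondrial peroxiredoxin, at 0.38 (0.25), Txnl1 at 0.28 (0.23), Sqstm1 at 0.39 (0.21) and Cbr1, a carbonyl reductase, at 0.27 (0.20).

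Of 17 heme and iron genes 13 were higher in KO cerebellum (median 0.09; 13 and 0.08 without KO 3), among them Fth1, the ferritin heavy chain, at 0.43 (0.31 without KO 3), while Hpx, which binds heme, was at -0.27 (-0.23). Of 7 superoxide and catalase genes 6 were higher (3 without KO 3), with Cat at 0.38 (0.12) and Sod2 at 0.20 (0.15). Of 12 genes of NADPH supply 9 were higher (7 without KO 3), with Me1 at 0.29 (0.04) and Pgls at -0.26 (-0.24). Of 19 ATF4 targets 8 were higher (median -0.02; 10 and 0.02 without KO 3), with Mthfd2 at 0.41 (0.29) and Atf5 at -0.26 (-0.22). Of 17 regulators 12 were higher (11 without KO 3), with Rxra at 0.38 (0.29), and Nfe2l2 itself was at 0.16. Of 9 NADPH oxidase and nitric oxide synthase genes 5 were higher (median 0.01), with Nos2 at 0.25 (0.20) and Ncf1, an oxidase subunit, at 0.14 (0.03).

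In cortex 18 of the 28 other Nrf2 targets were higher in KO (median 0.01), as were 18 of 27 glutathione genes (median 0.08) and 11 of 18 thioredoxin genes (median 0.07). Of all rows, 47.1% were higher in KO there. Mgst1, a microsomal glutathione transferase, was at 0.54, Mgst3 at 0.35, Abcc1 at 0.30, Msrb2, a methionine sulfoxide reductase, at 0.43 and Prdx2 at 0.25. In hippocampus 20 of the 28 targets, 13 of the 27 glutathione genes and 12 of the 18 thioredoxin genes were higher, with Cbr3 at -0.28, Osgin1 at 0.20, Mgst3 at -0.23 and Nxn at 0.18. Of all rows, 52.5% were higher in KO in hippocampus. Nfe2l2 was at 0.02 in cortex and 0.16 in hippocampus, and Keap1 between 0.01 and 0.08 in the 3 regions.

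The genes most like each of the 10 over the 24 arrays were found by Pearson's r, given here as a description over points that share 3 regions. Slc7a11 was closest to Zmat4 (r = 0.971) and Fam163a (r = 0.969), and Gclm to Ints4 (r = 0.966) and Tmem41b (r = 0.963). These highest values belong to the genes with the widest regional differences. Nqo1 was closest to Cgnl1 (r = 0.900), Gsta4 to Rwdd2a (r = 0.892), Prdx1 to Abhd4 (r = 0.918), Txn1 to Rcn2 (r = 0.868) and Srxn1 to Rwdd4a (r = 0.867). Gclc was closest to Atg4b (r = 0.848), Txnrd1 to Yipf3 (r = 0.810) and Hmox1 to Pgf (r = 0.788).

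With the 6 group means removed, the correlations describe how arrays of 1 group varied together. Prdx1 then lay closest to Gstk1, a glutathione transferase (r = 0.902), Gsta4 to Nsdhl, an enzyme of sterol synthesis (r = 0.904), and Gclc to Aqp4, the astrocyte water channel (r = 0.755). Srxn1 stayed closest to Rwdd4a (r = 0.880), and Slc7a11 lay closest to St8sia4 (r = 0.855). Among the 10 genes, Gsta4 and Prdx1 varied together (r = 0.75), as did Prdx1 and Txn1 (r = 0.71), Srxn1 and Txn1 (r = 0.68) and Gsta4 and Txn1 (r = 0.63), while Gclm and Hmox1 varied in opposite directions (r = -0.64). Cerebellum KO 3 held the highest cerebellar value of Srxn1, Gsta4, Prdx1 and Txn1 and weighs on the first 4 of these pairs. It can weigh in the same way on the closest genes named above, above all for Gsta4 and Prdx1. No correlation was computed without that array. Cerebellum WT 2 (Hmox1 8.87, Gclm 11.66) and cerebellum WT 4 (Hmox1 7.54, Gclm 12.35) weigh on the pair of Gclm and Hmox1.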

How the data were processed

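Total RNA of 24 mouse brain samples was measured on 1-colour microarrays. The labels name biotin but also describe Cy3-labelled cRNA, so the chemistry is not settled here. The authors deposited log2 values per transcript cluster, made with RMA per the submitters' processing notes, which corrects background, normalizes and summarizes probes and shrinks differences of dim probes. Its version, settings and genome build: not given in the sources used here. That the scale is log2 was judged from the values (3.89 to 19.14), of which 291 rows were above 16 in at least 1 array. All folds rest on this judgement. Of 22206 rows, 19572 had 1 gene symbol and were tested as deposited, with no filter; 2634 had none and were left out. Groups came from the labels. limma 3.58.1 in R 4.3.3 (lmFit, eBayes, 2-sided) fitted all 24 arrays with 6 group means (18 residual degrees of freedom, prior 6.9); p-values were adjusted by Benjamini-Hochberg over all 19572 rows, with a threshold of 0.05. For comparisons between or across regions, animals were a random block (consensus correlation 0.00646, statmod 1.5.0). That an equal number within a genotype marks the same animal in all regions was assumed. The labels do not say how the animals were bred or sampled, so p-values measure the spread between these samples.

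The 10 genes and all lists were chosen with earlier results of these data known. Named genes were the 10, the 2 of smallest p per pathway list for KO against WT, the 3 of smallest p per list for regions, and the 2 most alike per gene; some of these are left out, and exceptions are stated. The fitting code was tested on simulated data. Alternatives were other normalizations, a dim-row filter, array weights, regions fitted alone, a replicate block and leaving out arrays.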

Additional observations from a re-analysis of the deposited data

Results flagged for a closer look

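In 4 of the 60 groups of 4 arrays (10 genes in 6 groups), 1 array lay far from the other 3 by Dixon's criterion, which chance alone meets in about 1 of 20 groups. Gsta4 in cerebellum KO 3 was at 12.61, where the other 3 KO arrays were at 11.51 to 11.53. Prdx1 in the same array was at 15.02, where the others were at 14.18 to 14.26. Gsta4 in cortex KO 4 was at 11.12, where the others were at 11.47 to 11.49. Gclm in cortex KO 3 was at 11.19, where the others were at 10.97 to 11.00.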

How the results depend on the processing

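Outside the settings that leave out 1 array, 204 of 210 counts of called genes stayed within a fixed ratio of the main count. A count could thus change and still be scored as kept. Of 970 gene values, 949 were scored as keeping their direction and their side of the threshold. Some settings, such as regions fitted alone, the dim-row filter and the replicate block, leave these differences unchanged by construction. In them only the side of the threshold could change, so the count is no measure of how stable the directions are. A sign change of a value that rounds to 0.00 was scored as kept. Signs changed for 14 gene values, 0 of them called, where a value of 0.00 over all arrays has no sign to change. The WT and KO animals share only a number (deviations of equally numbered arrays correlated at -0.243 to 0.297). With a replicate block by that number, 22 genes passed between KO and WT in cerebellum, 0 of them among the 10 genes. With array weights 2663 genes passed between hippocampus and cortex in WT, and with array weights or with the regions fitted alone 1 of the 10 genes passed there in each genotype, Gsta4 (0.56 in WT and 0.45 in KO with weights). Between cerebellum and cortex in KO, Gclc was lost under quantile normalization (0.28, adjusted p = 0.052). Txn1 between cerebellum and hippocampus in WT passed without the dimmest rows (-0.26) and with weights (-0.25). The causes were not tested.

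Values that changed sign were, for cerebellum against hippocampus in WT, Srxn1 at 0.01 (quantile) and 0.04 (arrays centred on their median), for cerebellum against cortex in KO, Txn1 at 0.02 (centred), and for cerebellum against hippocampus in KO, Prdx1 at -0.13 (weights). For KO against WT they were Txnrd1 in cortex at -0.02 (weights) and -0.03 (without cortex KO 1 and KO 4, also with cerebellum KO 3 left out) and Srxn1 in hippocampus at 0.01 (weights). Averaged over regions they were Hmox1 at -0.01 (centred) and -0.03 (without these 3 arrays), Txnrd1 at -0.01 (weights), and Slc7a11 at -0.06 (weights), -0.05 (without cortex KO 1 and KO 4) and -0.11 (without the 3 arrays).

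Leaving out 1 array at a time gave 0 to 55 genes between KO and WT in cortex (55 without KO 2, 34 without KO 3), 0 to 1 averaged over regions, and 0 of the 10 genes throughout. Between cerebellum and cortex the 10 genes gave 2 to 5 calls in KO (2 without cortex KO 2), where all 19572 rows gave 5499 to 6467. In WT they gave 3 to 4, where all rows gave 6233 to 7281. Between cerebellum and hippocampus they gave 3 to 4 in KO (5319 to 6565 of all rows) and 4 to 5 in WT (5998 to 7113 of all rows). Between hippocampus and cortex they gave 0 to 1 in each genotype, where all rows gave 886 to 1789 in WT and 1019 to 1730 in KO.

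Over these settings the following values took both signs. For KO against WT in cerebellum, Hmox1 ran from -0.26 to 0.18 and Gclc from -0.07 to 0.06. In cortex, Slc7a11 ran from -0.21 to 0.05, Gclc from -0.09 to 0.05 and Txnrd1 from -0.10 to 0.11. In hippocampus, Nqo1 ran from -0.05 to 0.26, Srxn1 from -0.08 to 0.07, Gclm from -0.09 to 0.04, Hmox1 from -0.07 to 0.07 and Txnrd1 from -0.09 to 0.06. Averaged, Hmox1 ran from -0.06 to 0.09 and Slc7a11 from -0.04 to 0.06. Gsta4 averaged and Gclm in cortex, both 0.00 over all arrays, ran from -0.09 to 0.03 and from -0.05 to 0.04. For cerebellum against cortex, KO gave Hmox1 -0.16 to 0.03, Prdx1 -0.05 to 0.23 and Txn1 -0.13 to 0.04, and WT gave Hmox1 -0.11 to 0.33 and Prdx1 -0.05 to 0.14. For cerebellum against hippocampus, KO gave Gsta4 -0.33 to 0.04 and Prdx1 -0.17 to 0.11, and WT gave Srxn1 -0.05 to 0.06. For hippocampus against cortex, KO gave Nqo1 -0.03 to 0.28 and Txn1 -0.01 to 0.11, and WT gave Txnrd1 -0.02 to 0.19.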
